A study of Mus musculus with 8 samples.

Results

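The mitochondrial ribosomal protein genes were taken as every gene in the deposited count tables whose symbol starts with Mrpl or Mrps and a number. There were 77 of them among 24421 genes, 48 with an Mrpl symbol (large subunit) and 29 with an Mrps symbol (small subunit). They were measured in mouse CD8+ T cells by 3' RNA sequencing, in which reads are counted near the poly(A) end of each transcript. Both groups started from naïve T cells and were stimulated for 48 hours on plates coated with antibodies to CD3 and CD28. The 4 control libraries carry the genotype LKB1 wild type, and the other 4 come from LKB1-deficient cells. The gene Stk11 encodes LKB1, a kinase upstream of the energy sensor AMPK. The labels name neither the allele, the driver of the deletion, the strain nor the age of the mice, and they do not say whether replicates came from separate animals. The p-values therefore measure only the spread between these libraries, which may be technical.

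The mitochondrial ribosome translates the few messenger RNAs encoded by the mitochondrial genome, all of which specify inner-membrane subunits of the respiratory chain and the ATP synthase. Its ribosomal RNAs are made in the organelle, whereas all of its proteins are encoded in the nucleus, translated in the cytosol and imported. Some of these proteins descend from bacterial ribosomal proteins and others were added in the mitochondrial lineage. T cells enlarge their mitochondria and their mitochondrial translation machinery when they leave quiescence.

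Of the 77 genes, 76 had enough counts to be tested, and 5 were lower in LKB1-deficient cells at an adjusted p under 0.05. These were Mrps14, Mrpl14, Mrpl39, Mrpl54 and Mrps18c, and they were 1.38 to 1.63-fold lower. No member was called higher. The share called was 6.58% of the members. Across all 10396 genes tested 22.5% were called, 10.1% lower and 12.4% higher. By subunit, 3 of 48 large-subunit genes (6.25%) and 2 of 28 small-subunit genes (7.14%) were called lower. At an unadjusted p under 0.05, 18 members were lower and 1 was higher by edgeR's quasi-likelihood test, against 18.4% lower and 20.8% higher over all tested genes. DESeq2's Wald test called 12 members lower and 0 higher, against 12.9% and 16.4% of all tested genes. For limma-voom the counts were 5 lower and 0 higher, against 9.72% and 11.6%.

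The median of the members lay below that of all genes, and most single members did not pass the test. The median log2 fold change of the members was -0.19, against 0.00 over all tested genes, and with the trend of fold change on transcript length removed, as described further on, it was 0.01. In the fit that keeps the trend 52 of 76 (68.4%) lay below 0 against 49.7% of all genes. The median was -0.21 in the large subunit and -0.10 in the small subunit. The difference between the subunits was not tested. Values of the members ran from -0.87 (Mrpl23) to 0.59 (Mrps5), neither of which was called. The intervals of single members were narrow. The unadjusted 95% interval stayed within a 2-fold change in either direction for 73 of 76 members (96.1%), against 66.0% of all tested genes, with Mrpl14, Mrpl23 and Mrps5 as the exceptions. It stayed within 1.5-fold for 45 of 76 (59.2%), against 28.7%. The median coefficient of variation within a group was 11.6% for the members and 17.1% for all tested genes. The members had a median of 121 CPM (counts scaled to a library total of 1000000) against 31.7 CPM over all tested genes, a figure that bears on counting precision and is not a level per transcript length. In bulk RNA of this kind, fewer cells of a type and less RNA per cell cannot be told apart.

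**Figure D1:**
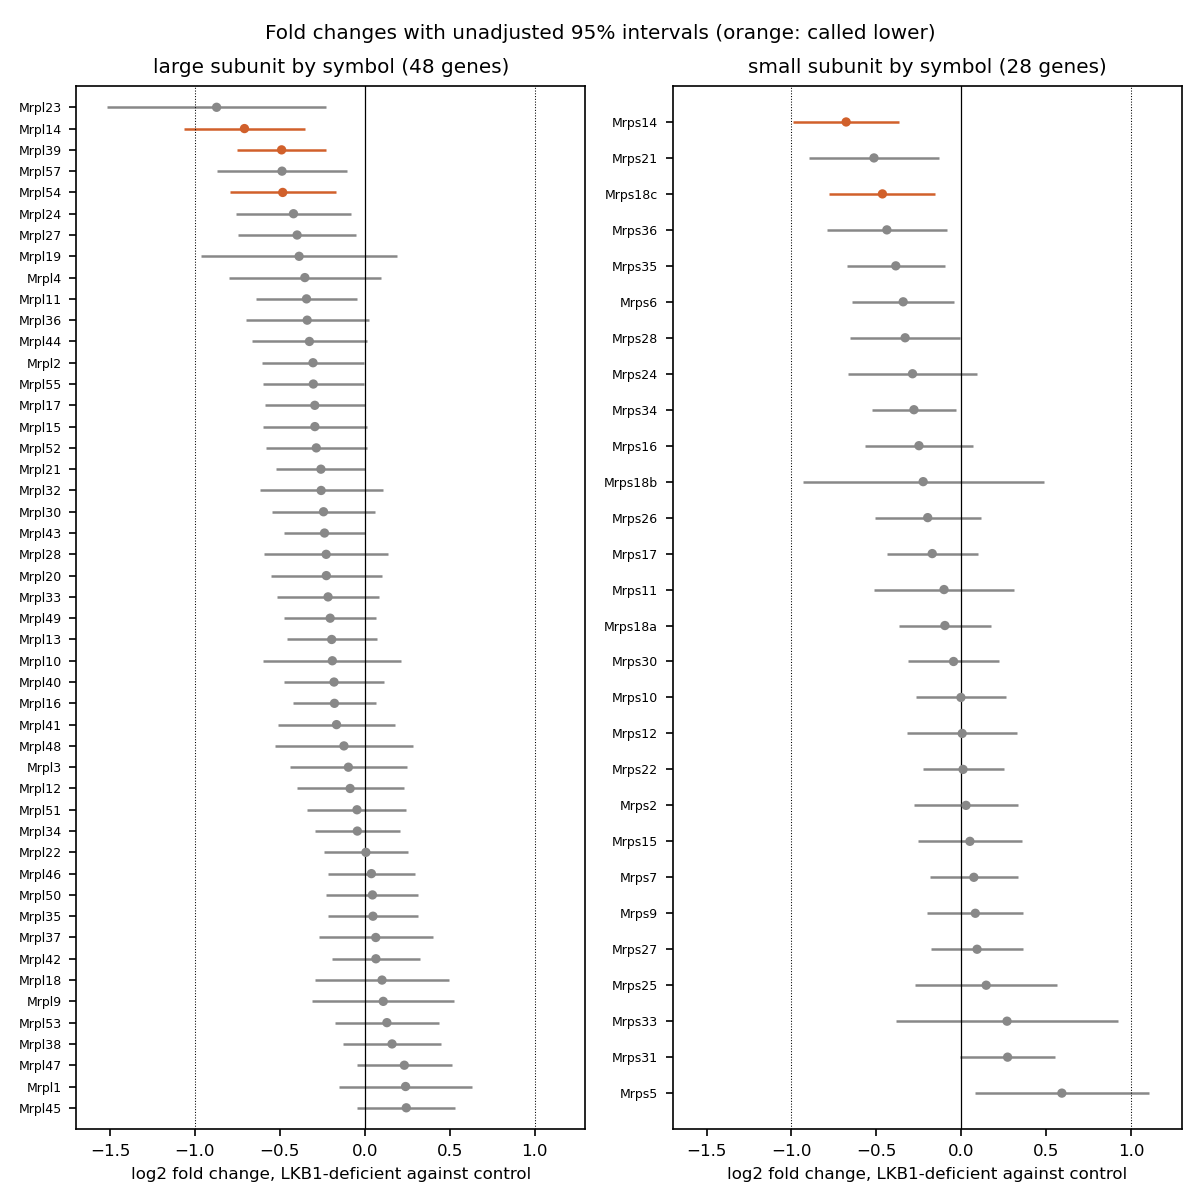
The log2 fold change (LKB1-deficient against control, horizontal axis) of each of the 76 tested genes is a point with its unadjusted 95% interval as a line, ordered by value within the large (left) and small (right) subunit, and dotted lines mark a 2-fold change. Most points lie left of 0 with intervals inside the dotted lines, and the 5 genes called lower are in orange.

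The depth and make-up of the libraries differed between the groups. The controls held between 7090252 and 12211930 counts in genes and the LKB1-deficient libraries between 3454388 and 6356125. For each such count there were 2.92 to 3.50 multiply placed alignments in the controls and 2.21 to 2.65 in the LKB1-deficient libraries. Of 7 CD8 T cell markers, 3 fell in LKB1-deficient cells (Cd8a, Cd3d and Cd3g). The groups overlapped in Cd3g, and its call was lost without control replicate 1 or 3 or without LKB1-deficient replicate 2 or 4 (adjusted p up to 0.0681). Cd3e (log2 fold change 0.32, adjusted p = 0.202) and Cd2 (0.24, adjusted p = 0.203) had values above 0, and Cd2 was higher with the length trend removed (0.53, adjusted p = 0.0128). The summed CPM of the list ran from 3344 to 3906 in the controls and from 1861 to 2827 in the LKB1-deficient libraries. Markers of NK cells summed to 66.3 to 116 CPM in the controls and 83.7 to 154 CPM in the LKB1-deficient libraries. Nearly all of this was Eomes (65.9 to 116 and 82.9 to 151 CPM, not called). The other NK markers, Ncr1 and Klrb1c, reached at most 0.583 and 2.04 CPM, so the sum is no measure of NK cells. Markers of B cells, with 1 called lower, summed to 7.23 to 12.6 CPM in the controls and 4.56 to 7.88 CPM in the LKB1-deficient libraries. CD4 T cell markers came to at most 9.08 CPM. Myeloid markers summed to at most 2.04 CPM, mast cell and basophil markers to 3.14 to 3.93 CPM in the controls and 3.38 to 13.1 CPM in the LKB1-deficient libraries, with erythroid markers at 0.487 to 0.909 CPM in the controls and 0 to 9.32 CPM in the LKB1-deficient libraries. LKB1-deficient replicates 2 and 4 held the highest levels of the erythroid marker Klf1, 9.32 and 6.20 CPM, while Hbb-bs and Hba-a1 were at 0 in all 8 libraries. The part of these differences in the members' values was not tested. Stk11 itself came to 101, 67.8, 82.0 and 77.0 CPM in controls 1 to 4 and, in the same order, to 76.5, 70.8, 107 and 64.4 CPM in the LKB1-deficient libraries (log2 fold change -0.03 ± 0.18 SE, adjusted p = 0.911). Counts from the 3' end need not lie in the deleted part, so this does not check the genotype labels.

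Among the small-subunit genes, Mrps14 had the smallest p. Its product is the homologue of bacterial S14 in the head of the subunit. Its gene occupies chr1:160195215-160202170 (GRCm38, plus strand), with no annotated overlap with another gene's exons. It stood at 205, 179, 225 and 230 CPM in controls 1 to 4 and, in the same order, at 142, 115, 147 and 119 CPM in the LKB1-deficient libraries. All LKB1-deficient libraries lay below all controls. The log2 fold change was -0.68 ± 0.14 (SE, n = 4 per group), an adjusted p of 0.0118 by edgeR's quasi-likelihood test with Benjamini-Hochberg adjustment over all tested genes. Of the 5 calls it was made under the most of the 23 alternative settings, 22. Among these settings it was lost only without LKB1-deficient replicates 2 and 4 (log2 fold change -0.53, adjusted p = 0.102). The 23 do not include a threshold of 0.01 or the test against a 1.5-fold change, and none of the 5 calls was made in either. Fewer of all tested genes were called without any 1 control or without LKB1-deficient replicate 2 or 4. A call lost in these settings, here or below, is therefore no measure of that gene alone.

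Mrps18c belongs to a family of 3 paralogues of bacterial S18 with different places in the ribosome, which lets the copies be compared. Its product takes the place of bacterial S18 in the small subunit, the product of Mrps18b is a separate small-subunit protein, and that of Mrps18a sits in the large subunit despite its symbol. Mrps18c came to 178, 156, 186 and 164 CPM in the controls and 131, 110, 148 and 107 CPM in the LKB1-deficient libraries. The groups did not overlap, and the fall of 0.46 on the log2 scale (SE 0.14) had an adjusted p of 0.0401. Mrps18a had means of 84.4 ± 4.43 CPM in the controls and 78.9 ± 9.46 CPM in LKB1-deficient cells (SD, n = 4 each), a log2 fold change of -0.10 with a 95% interval of -0.37 to 0.18. Mrps18b was too low to place, with 9 to 49 raw counts per library and a 95% interval of -0.93 to 0.49. The differences between the paralogues were not tested. The call of Mrps18c is among the least stable of the 5. It was made in 11 of 23 alternatives and was lost when any one of control replicates 1, 3 or 4 or LKB1-deficient replicates 1, 2 or 4 was left out (adjusted p up to 0.111). It was also lost with a term for the prefix of the sample identifiers, ET or EU (adjusted p = 0.0567), and in the EU libraries alone (0.0904).

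Mrpl14 and Mrpl39 were the large-subunit genes with the smallest p. The product of Mrpl14 is the homologue of bacterial L14 at the face that meets the small subunit. Its gene occupies chr17:45686322-45698495 on the plus strand and shares exon positions with Tmem63b on the other strand. It came to 145, 157, 183 and 199 CPM in the controls and to 132, 93.2, 98.4 and 95.2 CPM in the LKB1-deficient libraries. The groups did not overlap, although LKB1-deficient replicate 1 stood apart from its group on the side of the controls. The fall of 0.71 on the log2 scale (SE 0.16) had an adjusted p of 0.0147 and was called in 19 of 23 alternatives. Mrpl39 encodes a mitochondria-specific protein that resembles a threonyl-tRNA synthetase. It came to 103, 110, 106 and 126 CPM in the controls and to 72.6, 79.8, 85.8 and 78.4 CPM in LKB1-deficient libraries, again without overlap. Its fall of 0.49 on the log2 scale (SE 0.12) had an adjusted p of 0.0195. It was called in 17 of 23 alternatives and was lost without control replicate 4 or without LKB1-deficient replicate 4.

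Mrpl54, another mitochondria-specific gene of the large subunit, was the last of the 5. It came to 229, 222, 257 and 257 CPM in the controls and to 193, 166, 192 and 141 CPM in the LKB1-deficient libraries. Every LKB1-deficient library lay below every control, with a log2 fold change of -0.48 ± 0.14 (SE) and an adjusted p of 0.0360. The call was made in 11 of 23 alternatives and was lost without any one of control replicates 1, 3 or 4 or LKB1-deficient replicates 2 or 4 (adjusted p up to 0.100). It was also lost with a term for the identifier prefix (adjusted p = 0.0522) and in the EU libraries alone (0.0512). Without both LKB1-deficient replicates 2 and 4 none of the 76 members was called by edgeR, with 5 at an unadjusted p under 0.05, all lower, and the members' median was -0.12. In that fit 98 genes were lower and 162 higher of 10948 tested. At an unadjusted p under 0.05 by edgeR, 1149 of the 10948 were lower and 1282 higher.

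**Figure D2:**
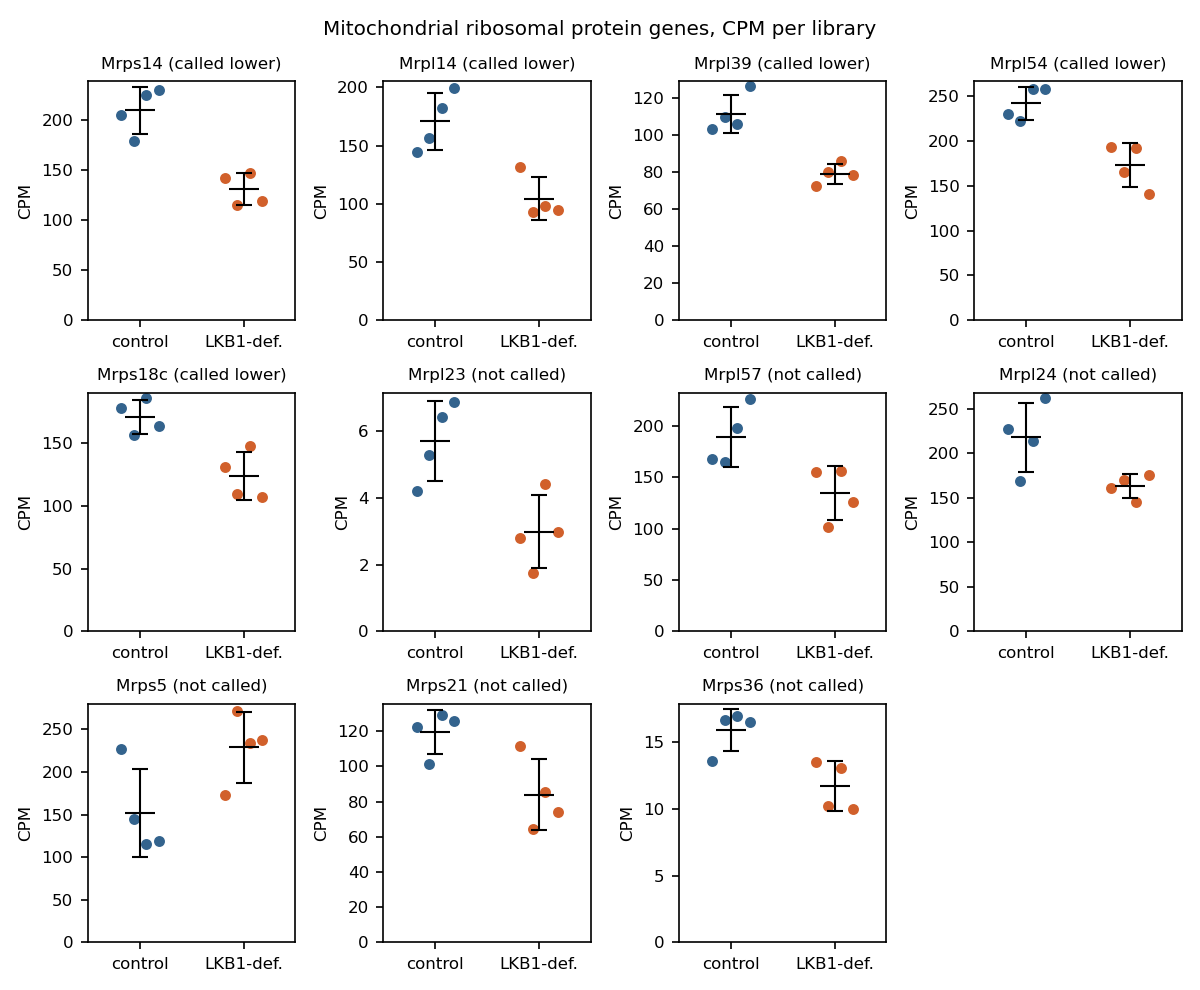
CPM (vertical axis, from 0) of the 5 genes called lower and of the 3 uncalled genes with the largest fold change in each subunit, with 1 point per library and the mean ± SD of 4 libraries in black. In the 5 called genes every LKB1-deficient library lies below every control, while in Mrps5 control replicate 1 (227 CPM) lies among the LKB1-deficient libraries.

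Some uncalled members had falls at least as large as the smallest called one (-0.46, Mrps18c), and others named here had slightly smaller ones. Mrpl23, whose product lies at the exit of the peptide tunnel, had only 6 to 85 raw counts per library. It came to 4.22, 5.28, 6.43 and 6.88 CPM in the controls and to 2.81, 1.75, 4.41 and 2.97 CPM in the LKB1-deficient libraries. The groups overlapped, and the log2 fold change of -0.87 ± 0.29 (SE) had an adjusted p of 0.0543. The last 300 bases of its longest transcript match 77 other genes at 95% identity or more over at least 100 bases, so its counts are uncertain. Mrps21 (log2 fold change -0.51, adjusted p = 0.0565), Mrpl57 (-0.49, adjusted p = 0.0650) and Mrpl24 (-0.42, adjusted p = 0.0711) also missed the threshold. Mrpl24 encodes another protein of the tunnel exit, and Mrps21 is the homologue of bacterial S21. Mrps36 (-0.44, adjusted p = 0.0685) carries a ribosomal name but its product is a component of the 2-oxoglutarate dehydrogenase complex and is absent from structures of the ribosome.

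Mrps5, the homologue of bacterial S5 at the entry of the messenger RNA channel, had the highest log2 fold change of the 76 members. It came to 227, 145, 116 and 120 CPM in the controls and to 173, 272, 234 and 237 CPM in the LKB1-deficient libraries. The groups overlapped because control replicate 1 was high and LKB1-deficient replicate 1 was low. The log2 fold change of 0.59 ± 0.23 (SE) had an adjusted p of 0.0852. Without control replicate 1 it was 0.85 with an adjusted p of 0.0226, and among the replicates 2 to 4, whose sample identifiers start with EU, it was 0.96 with an adjusted p of 0.0158. These were the only 2 of the 23 alternatives in which Mrps5 was called. Leaving out other single libraries gave an adjusted p up to 0.209. Without both LKB1-deficient replicates 2 and 4 the log2 fold change was 0.43, with an adjusted p of 0.413. Both libraries of replicate 1 have identifiers that start with ET, and with 1 library per group the ET libraries give no test of their own.

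In the fit that keeps the length trend, members in which no difference was seen included Mrpl22, which lines the peptide tunnel. Mrpl22 came to 43.9 ± 2.10 CPM in the controls and 44.1 ± 3.24 CPM in LKB1-deficient cells (SD, n = 4 each). Its log2 fold change was 0.01 with a 95% interval of -0.24 to 0.25. Mrpl46 (0.04, interval -0.22 to 0.30) and Mrps10 (-0.00, interval -0.27 to 0.26) had similarly narrow intervals around 0, and so did Mrps12 (0.01, interval -0.32 to 0.33), whose product lies at the decoding centre. Mrpl12, whose product forms the stalk that recruits translation factors, had a log2 fold change of -0.09 (interval -0.40 to 0.23). Mrpl1, of the other stalk, was at 0.24 (interval -0.15 to 0.63). Mrpl45, whose product anchors the ribosome to the inner membrane, was at 0.24 (interval -0.04 to 0.53). Mrps30, a large-subunit protein despite its symbol, was at -0.05 (interval -0.31 to 0.22). The end of the transcript matches a processed pseudogene in Mrpl22, Mrps10 and Mrps21, and an exon of Mrps18c overlaps the gene model Gm43511 on the same strand, so that counts of these genes are less certain. Of these intervals those of Mrpl22, Mrpl46, Mrps10, Mrps12, Mrps30 and Mrpl12 do not reach -0.46, the smallest change among the called members. Those of Mrpl1 and Mrpl45 do not reach it either, and extend above 0.46 on the other side. With the length trend removed edgeR called Mrpl22 (0.41, adjusted p = 0.0389) and Mrpl46 (0.33, adjusted p = 0.0473) higher.

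Mrps23 was listed at 0 in all 8 libraries. A count of 0 allows up to 0.246 CPM in the deepest library and 0.868 CPM in the shallowest, counting error only. How the authors' annotation treats this gene is not given in the sources used here.

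In each library the members can be set against the mean of the 4 controls on a log2(CPM + 1) scale. The median deviation of the 76 genes was -0.06, -0.11, 0.05 and 0.11 in controls 1 to 4 and, in the same order, -0.08, -0.24, -0.16 and -0.19 in the LKB1-deficient libraries. LKB1-deficient replicate 1 therefore lay among the controls, between controls 1 and 2, and the other 3 lay below them. LKB1-deficient replicates 2 and 4 held the lowest value of 23 and 17 members, and control 4 held the highest value of 32. The summed level of the members was 10461, 9681, 10728 and 11223 CPM in the controls and 9912, 9398, 9461 and 9526 CPM in LKB1-deficient libraries, with replicate 1 of the LKB1-deficient group above control 2. The groups did not overlap for 12 of 76 members (15.8%), 11 lower and 1 higher, against 26.1% of all tested genes. The single higher one was Mrps31, a mitochondria-specific small-subunit gene singled out after its values were seen, at 70.2 ± 3.02 CPM in the controls and 84.9 ± 11.5 CPM in LKB1-deficient cells (SD, n = 4 each), with an adjusted p of 0.134.

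**Figure D3:**
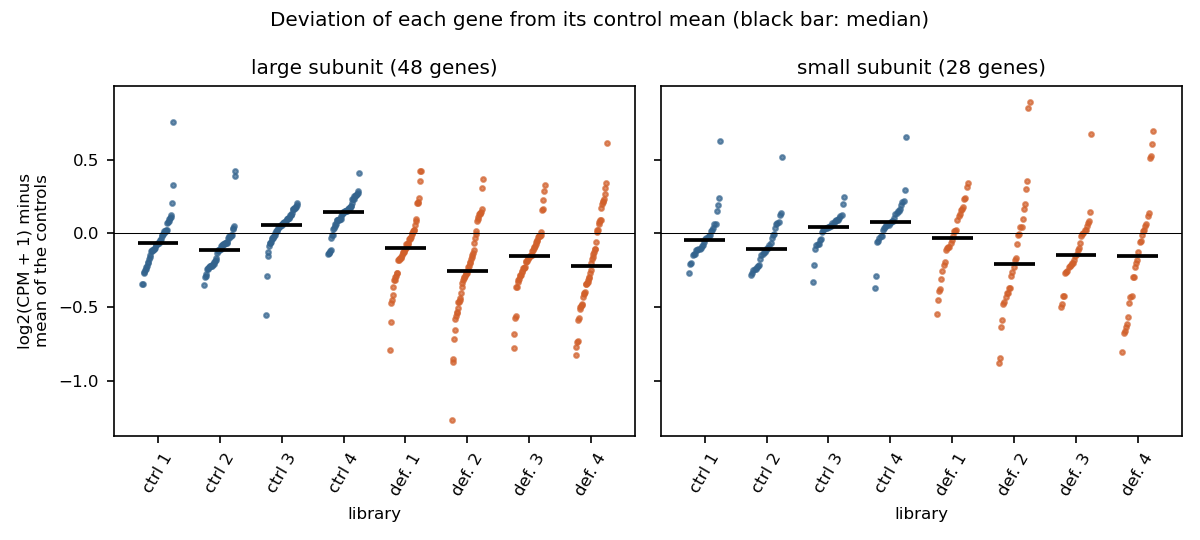
Deviation of each gene from its mean over the controls (vertical axis, log2(CPM + 1) units) in each of the 8 libraries, for the large and small subunit, with 1 point per gene sorted by value within a library and the median as a black bar. The medians of LKB1-deficient replicates 2 to 4 lie below those of all controls, while that of replicate 1 lies among them.

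Members of bacterial descent and mitochondria-specific members were described apart. Of the 46 bacterial members 3 (6.52%) were lower and none higher by edgeR, with a median log2 fold change of -0.23. Of the 29 tested mitochondria-specific members 2 (6.90%) were lower and none higher, with a median of -0.10. Of all tested genes 10.1% were lower and 12.4% higher. With the length trend removed the medians were 0.001 and 0.03, in the same order. The difference between the classes was not tested. At an unadjusted p under 0.05, 12 and 5 were lower and 1 and 0 were higher, against 18.4% lower and 20.8% higher of all tested genes. DESeq2 called 6 of each lower and none higher, against 12.9% and 16.4%. Mrps36 belongs to neither class. In a further split Mrps30 and Mrps18a were moved to the large subunit, where structures place them, and Mrps36 was left out. Then 3 of 50 large-subunit (6%) and 2 of 25 small-subunit genes (8%) were lower, against 10.1% of all tested genes. Their medians were -0.20 and -0.10.

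Some ribosomal proteins of the mitochondrion have other symbols and were measured beside the members. Of 6 such genes 1 was lower and none higher, against 10.1% and 12.4% of all tested genes. Dap3, which encodes a GTP-binding protein of the small subunit also known from work on cell death, came to 149, 146, 161 and 165 CPM in the controls and to 134, 99.1, 124 and 108 CPM in the LKB1-deficient libraries. The groups did not overlap, and the fall of 0.41 on the log2 scale (SE 0.13) had an adjusted p of 0.0463. The call was lost without any one of the 4 controls or without LKB1-deficient replicate 2 or 4 (adjusted p up to 0.120). With the length trend removed edgeR called Dap3 lower (-0.55, adjusted p = 0.0318). The other 5 were not called. Aurkaip1 and Chchd1 of the small subunit both had log2 fold changes of -0.23 (adjusted p = 0.218 and 0.210), and Ptcd3, an RNA-binding protein of the same subunit, was at 0.22 (adjusted p = 0.501). Gadd45gip1 (-0.11) and Ict1 (-0.13), both of the large subunit, had adjusted p of 0.541 and 0.594.

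Transcript length moved with fold change in these libraries, and the members are short. Their longest annotated transcripts had a median of 1866.5 bases, against 3338 bases over tested genes with an annotated length. Over 10353 tested genes the Spearman correlation of length and log2 fold change was 0.39, and over the 76 members it was 0.21, both across genes, which share the same 8 libraries and are not independent replicates. All tested genes were split by length into 4 classes of about equal size. In the shortest class, up to 2167 bases, the median log2 fold change was -0.24, and the 41 members in that class had a median of -0.23. In the next class, up to 3338 bases, the 17 members had a median of -0.18 against -0.06 for all genes. The 13 members in the third class were at -0.05 against 0.06, and the 5 in the longest at -0.19 against 0.33. The shift of the members below all genes was therefore seen in every class but the shortest.

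**Figure D4:**
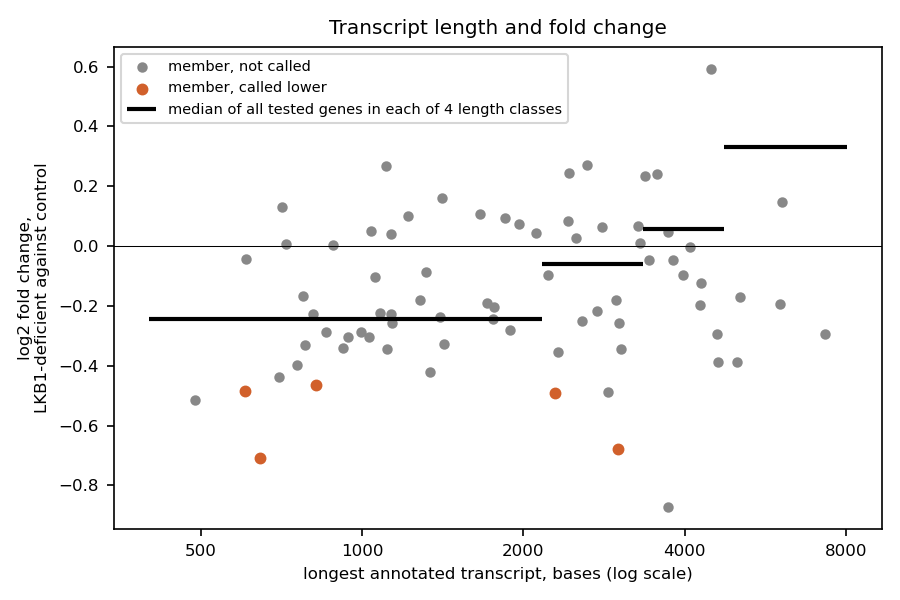
Log2 fold change (vertical axis) of each member against the length of its longest annotated transcript (horizontal axis, log scale), with black lines at the median of all tested genes in each of 4 length classes. Members up to 2167 bases scatter around the line of their class, -0.24, and in the other classes the median of the members lies below the line.

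When the trend of fold change on length was removed from all genes before the test, the members' median became 0.01 and their calls changed. Then 9 members were called, 4 lower and 5 higher, against 17.4% of all tested genes, and the only member called both ways of scaling was Mrps14 (log2 fold change -0.63, adjusted p = 0.0122). Mrpl13, Mrpl17, Mrps35, Mrpl34, Mrpl38 and Mrpl53 are named here after their values were seen. Mrpl13 (-0.47), Mrpl17 (-0.70) and Mrps35 (-0.51) were lower relative to genes of their length, with transcripts of 6008, 7300 and 4607 bases. These lengths are those of the longest annotated transcript, and which transcript the cells expressed was not measured. Mrpl22 (0.41), Mrpl34 (0.40), Mrpl38 (0.40), Mrpl46 (0.33) and Mrpl53 (0.54) were higher relative to genes of their length, with transcripts of 607 to 1411 bases. Mrpl14 (-0.28, adjusted p = 0.144), Mrpl54 (-0.05, adjusted p = 0.767) and Mrps18c (-0.10, adjusted p = 0.535), all shorter than 1000 bases, were no longer called, and Mrpl39 (-0.37) was at an adjusted p of 0.0504. The last 300 bases of Mrpl53 are identical to those of the overlapping gene model Gm42688, so its counts are uncertain. The part of length itself in the members' values was not tested beyond this.

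Genes for proteins that work with the mitochondrial ribosome gave few calls. Of 25 genes for assembly factors and enzymes that modify its RNA, 1 was lower and 1 higher, against 10.1% and 12.4% of all genes. Their median log2 fold change was -0.01. The lower one was Malsu1, whose product binds the Mrpl14 protein on the large subunit and keeps the subunits from joining early. It came to 80.1, 82.2, 94.1 and 99.6 CPM in the controls and to 63.9, 55.9, 76.8 and 53.1 CPM in LKB1-deficient libraries, without overlap (log2 fold change -0.51 ± 0.15 SE, adjusted p = 0.0354). The higher one was Noa1, a GTPase needed for the small subunit, at 49.4, 56.1, 50.2 and 52.0 CPM in the controls and 64.4, 67.6, 63.0 and 88.1 CPM in LKB1-deficient libraries, also without overlap (0.45 ± 0.14 SE, adjusted p = 0.0413). Both calls were lost when control 3, control 4 or one of the LKB1-deficient replicates 2 and 4 was left out, that of Malsu1 also without LKB1-deficient replicate 1 (adjusted p up to 0.0981), and that of Noa1 also without control replicate 1 or 2 (adjusted p up to 0.108). With the length trend removed edgeR called Malsu1 lower (-0.44, adjusted p = 0.0466) and Noa1 higher (0.51, adjusted p = 0.0314).

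Of 15 genes for translation factors and related enzymes 1 was higher and none lower, against 12.4% and 10.1% of all tested genes. Their median log2 fold change was 0.21, and without both LKB1-deficient replicates 2 and 4 it was 0.07. With total count scaling, which moved the median of all genes to -0.16, it was 0.04. With the length trend removed it was 0.30. At an unadjusted p under 0.05 by edgeR 4 were higher and none lower, against 20.8% and 18.4% of all tested genes. The called gene was Tufm, the elongation factor that brings aminoacyl-tRNA to the ribosome. It came to 13.7, 13.3, 12.3 and 14.03 CPM in the controls and to 16.3, 18.1, 25.7 and 19.9 CPM in the LKB1-deficient libraries. All LKB1-deficient libraries lay above all controls (0.60 ± 0.16 SE, adjusted p = 0.0271). The call was lost without any one of the 4 controls or without LKB1-deficient replicate 3 or 4 (adjusted p up to 0.0823). With the length trend removed edgeR called Tufm higher (0.78, adjusted p = 0.0133). DESeq2 called 3 of these genes higher and none lower, against 16.4% and 12.9% of all tested genes. Of 10 genes for messenger RNA handling and membrane insertion none was called by edgeR, with 2 at an unadjusted p under 0.05, both higher, and DESeq2 called 1. Their median was 0.14, and 0.03 without both LKB1-deficient replicates 2 and 4. Of 7 genes for mitochondrial transcription 6 were tested and none was called, with 1 at an unadjusted p under 0.05 and none called by DESeq2. Their median was -0.01.

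Cytosolic ribosomal proteins and the subunits of respiratory complex I were set beside the members as large groups of genes of similar kind. Of 83 cytosolic ribosomal protein genes 25 were lower and 3 higher, 33.7% in all, against 22.5% of all tested genes. Their median log2 fold change was -0.35, and their transcripts were shorter still, with a median of 1094 bases. Of 35 complex I subunit genes, which have a median of 1046 bases, 16 were lower (45.7%) and none higher, with a median of -0.42. At an unadjusted p under 0.05 by edgeR 25 of them were lower and none higher, against 18.4% and 20.8% of all tested genes. DESeq2 called 21 of them lower, against 12.9%. With the length trend removed 5 cytosolic ribosomal protein genes were lower and 4 higher, with a median of -0.08. In the same fit 4 complex I genes were lower and none higher, with a median of -0.13, and 17.4% of all tested genes were called. The differences of these lists from the members were not tested.

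**Figure D5:**
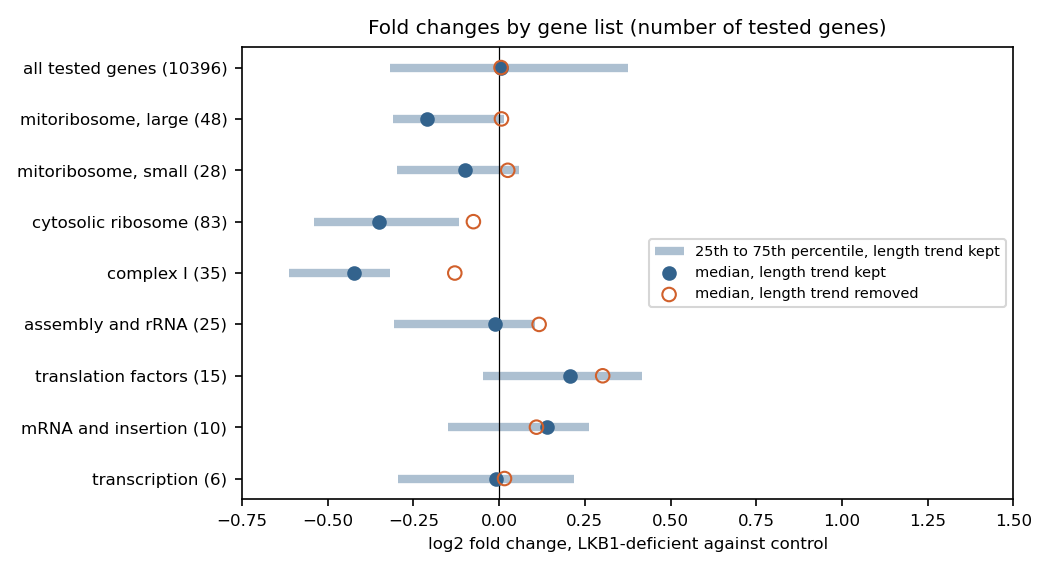
Median log2 fold change of each gene list as fitted (filled blue points, with bars from the 25th to the 75th percentile) and with the length trend removed (open orange circles), with the number of tested genes in parentheses. The medians of the mitochondrial ribosomal proteins lie at -0.21 and -0.10 as fitted and at 0.01 and 0.03 with the trend removed.

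Promoters of the members were read from the RefSeq table (GRCm38.p6), which held 68 of the 77, each from 250 bases before to 50 bases after the start. Many of these genes share a short stretch of DNA with a neighbour read in the opposite direction. The sequences printed are the promoter of Mrps14, which had the most stable call, the stretch before Mrps18c, which separates it from Helq, and the stretch between the RefSeq starts of 2 members, Mrpl46 and Mrps11. Each is written 5′ to 3′ on the plus strand, and capitals mark matches to the motifs named in the next paragraph.
Mrps14, chr1:160195045-160195214: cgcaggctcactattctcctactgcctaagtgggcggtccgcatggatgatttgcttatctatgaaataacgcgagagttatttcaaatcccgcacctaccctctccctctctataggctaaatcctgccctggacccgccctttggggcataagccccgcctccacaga
Mrps18c and Helq, chr5:100798589-100798626: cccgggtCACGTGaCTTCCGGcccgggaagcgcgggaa
Mrpl46 and Mrps11, chr7:78783090-78783130: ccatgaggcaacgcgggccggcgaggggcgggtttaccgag

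The stretch of 38 bases before Mrps18c lies just before the most upstream of its annotated starts, and its first 10 bases are in an exon of Helq. It holds an E-box and an ETS match separated by 1 base. Mrps14 has no match in its window, and the 41 bases between the RefSeq starts of Mrpl46 and Mrps11 hold none. In GENCODE 12 of these 41 bases are in an exon, and the longest annotated extents of the pair overlap. Over whole 300-base windows, on both strands, the NRF1 core CGCATGCG was found in 7 of 68 members (10.3%), in 4.44% of 8032 tested genes with a promoter and in 1.91% of all 27025 promoters. Mrpl39 is among the members that hold it. The ETS letters CCGGAAG were found in 24 of 68 (35.3%, against 20.9% and 9.12%) and the YY1 letters AGATGGCG in 8 (11.8%, against 4.76% and 2.06%). The E-box CACGTG was in 5 (7.35%, against 10.7% and 7.24%), CCAAT in 27 (39.7%, against 39.4% and 37.9%) and TATAAA in 4 (5.88%, against 6.50% and 14.2%). The median GC content of the windows was 58.2% in members, 61.0% in tested genes and 52.7% in all promoters, and a match describes the letters and is no evidence of binding. These shares were not tested.

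In the neighbours read in the opposite direction the fold changes could be set beside those of the members. A protein-coding gene started on the other strand within 1000 bases of the start of 33 members. Of the 29 such neighbours tested 2 were lower and 3 higher, against 10.1% and 12.4% of all tested genes. Their median log2 fold change was -0.08. Beside Mrps18c, which fell, Helq was higher (0.90 ± 0.29 SE, adjusted p = 0.0475). Beside Mrpl14, which fell, Tmem63b was higher (0.68 ± 0.18 SE, adjusted p = 0.0277), although exons of the 2 genes overlap on opposite strands and how strand was used in counting is not stated. Beside Mrpl54, which fell, Apba3 was at -0.55 ± 0.19 (SE, adjusted p = 0.0554). Leaving out 1 library ended the calls of Helq (adjusted p up to 0.140; each control and LKB1-deficient replicates 2 and 4) and Tmem63b (up to 0.0797; control replicates 1, 3 and 4 and LKB1-deficient replicates 1, 2 and 4). The pair Mrpl46 and Mrps11 stood at 0.04 and -0.10, neither called. Of the 3 called members with a tested neighbour, 2 thus had a neighbour called in the other direction in the fit that keeps the length trend. With that trend removed neither Mrpl14 (-0.28, adjusted p = 0.144) nor Mrps18c (-0.10, adjusted p = 0.535) was called by edgeR. Whether such pairs differ from other pairs of genes was not tested.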

How the data were processed

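Each library has 1 table of whole-number counts by gene symbol, deposited by the authors, from strand-specific 3' libraries made with barcoded oligo-dT primers and pooled before PCR, per the labels' protocols. Per the submitters' processing notes reads were aligned with STAR to mm10. The annotation and counting program were not given in the sources used here. No molecular identifiers are stated, so copies made by PCR may be counted. The 5 lines at the end of each table without a gene name were left out. After filterByExpr (minimum count 10, minimum total 15) genes were compared in edgeR 4.0.16 (R 4.3.3) with TMM scaling and the robust quasi-likelihood test over all 8 libraries, with Benjamini-Hochberg adjustment over 10396 genes. DESeq2 1.42.0 and limma 3.58.1 (voom) were alternatives. CPM values use TMM-scaled totals. The length trend was a lowess curve with a span of 0.3, removed as an offset. Lengths, positions and overlaps come from GENCODE vM21. Scripts were tested on simulated data. The members, partner lists and tests were chosen with earlier results of these data known. Named were, in each subunit, up to 8 called genes in each direction by p, the 3 uncalled with the largest and the 2 with the smallest fold change, fixed genes of known place, ribosomal proteins under other symbols, and up to 3 called genes in each direction per partner list.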

Additional observations from a re-analysis of the deposited data

Results flagged for a closer look

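Among the 30 genes named by rule, 60 groups of 4 libraries were checked for a library that stands apart (the gap to the nearest other library relative to the range of the group, against Dixon's 95% critical value). Chance flags about 1 in 20 groups, and 6 were found. LKB1-deficient replicate 1 stood apart in Mrpl14 (131.7 CPM, the others 93.2 to 98.4) and in Mrpl45 (207.3 CPM, the others 239 to 242). Control replicate 1 stood apart in Mrps36 (13.6 CPM, the others 16.5 to 17.0), control replicate 4 in Mrps18b (6.37 CPM, the others 2.84 to 3.23) and control replicate 2 in Ptcd3 (39.5 CPM, the others 19.7 to 21.8). LKB1-deficient replicate 4 stood apart in Ict1 (141.3 CPM, the others 85.8 to 89.7).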

How the results depend on the processing

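The large subunit had 3 and the small subunit 2 called members, with median log2 fold changes of -0.21 and -0.10. The counts were 6 and 4 with upper quartile scaling, 8 and 6 with total count scaling and 7 and 5 with DESeq2's Wald test. Calls over all 10396 tested genes moved too. They were 1051 lower and 1286 higher as reported, 1576 and 829 with total count scaling, and 1343 and 1704 with DESeq2's Wald test. Upper quartile scaling also called more of all genes lower and fewer higher. The larger member counts in these settings are therefore no measure of the members alone. The counts were 0 and 0 at an adjusted p of 0.01, in a test against a 1.5-fold change and without both LKB1-deficient replicates 2 and 4. With the length trend removed the large subunit had 7 (2 lower, 5 higher), and with length and GC trends removed 6 (2 lower, 4 higher). Leaving out 1 library gave 1 to 6 in the large subunit, from 1 without control 4 or LKB1-deficient replicate 4 to 6 without LKB1-deficient replicate 3, and 1 to 3 in the small subunit, with 1 without control 3, control 4 or LKB1-deficient replicate 2 or 4. The medians were -0.31 and -0.20 with upper quartile and -0.37 and -0.25 with total count scaling, which moved the median of all genes to -0.16, so that relative to it the shift stayed close to that reported. They were 0.0068 and 0.0252 with the length trend removed and 0.0084 and 0.0333 with length and GC trends removed. The small-subunit median was -0.18 in the EU libraries alone and -0.1683 to -0.0187 when 1 library was left out, the latter without control 4. Mrpl34 turned from -0.04 to 0.40 with the length trend removed. With a replicate block the counts were 2 and 3 (Mrpl54 was at an adjusted p of 0.0663), with the length trend also removed 2 and 1, and the medians then 0.0080 and 0.0235. Deviations of same-numbered libraries correlated at -0.25, 0.29, 0.30 and -0.09, and not every library correlated best with its own number, so libraries were not treated as pairs. Of 898 comparisons over 36 named genes, 747 kept direction and side of the threshold, 47 gained and 103 lost the call, and 1 turned. Depth limits Mrpl23 (6 to 85 counts per library) and Mrps18b (9 to 49). The cause of these changes was not tested.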
